A study of Mus musculus with 24 samples.

Results

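Fatty acid oxidation and the targets of the peroxisome proliferator-activated receptors (PPARs) were followed through 8 genes, Ppara, Cpt1a, Acadvl, Acadl, Acadm, Hadha, Pdk4 and Plin2. They were chosen by name, and each symbol matched 1 Ensembl gene among the 54146 genes of the count tables. All 8 passed the filter on low counts in both experiments, among 15602 genes tested in the genotype experiment and 15467 in the Senexin B experiment.

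RNA was sequenced from mouse small intestinal organoids, which are epithelial cultures grown from intestinal stem cells, in 2 experiments of 12 libraries with 3 libraries per group. The genotype experiment asked what the loss of CDK8 and CDK19, the kinases of the Mediator complex, does to the transcriptome, in groups labelled WT, Cdk8-/-, Cdk19-/- and double knockout (CDK8-/- and CDK19-/-). By the labels and the study's methods, all 4 groups received 600 nM 4-hydroxytamoxifen for 7 days. The Senexin B experiment asked what chemical inhibition of both kinases does, in WT organoids given DMSO or Senexin B, a CDK8/19 inhibitor, for 16 h or 24 h. Cdk8 carried loxP sites around exon 2 and was deleted by Cre-ERT2 under the Villin promoter, which is active in the intestinal epithelium. Cdk19 was mutated with a lentiviral CRISPR-Cas9 vector, after which single organoids were picked for expansion. A line grown from a picked organoid is 1 clone. The study mentions several double knockout clones, but the labels do not say which clone a library came from, so the part of clones in the differences was not tested. The labels call the libraries biological triplicates without saying what was separate, and p-values measure the spread between these libraries.

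Long-chain fatty acids are activated to acyl-CoA, carried into mitochondria on carnitine and shortened by β-oxidation, in which acyl-CoA dehydrogenases of different chain-length preference introduce a double bond and, for long chains, the trifunctional protein carries out the later steps. PPARα, the product of Ppara, is a nuclear receptor that binds fatty acids and, paired with RXR, switches on the genes of this pathway. In the small intestine the pathway burns part of the dietary fat that enterocytes absorb, and the rest is stored in droplets or exported.

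Gene counts in the strand column used summed to 14636861 to 15473180 reads in the genotype libraries, and to 27075937 to 28405118 reads in those of the Senexin B experiment. Regardless of strand they summed to 27761454 to 29299919 and 28264517 to 28826860 reads, respectively. The genotype libraries carry no strand information, so the column used leaves out a large part of their reads. The Cdk19 count did not follow the labels in every library. It was 729 normalised counts in Cdk19-/- replicate 1 and 773 in double knockout replicate 3, against 711, 749 and 726 in WT and 355 to 422 in the other libraries labelled as lacking Cdk19. The Cdk8 count was 605 ± 61.4 in WT, 725 ± 117 in Cdk8-/- and 670 ± 32.6 in the double knockout (mean ± SD, n = 3), and a count over the whole gene cannot show the loss of 1 exon. Group names below are therefore those of the labels. The labels of the genotype libraries also give the cell type as 4T1, a mouse mammary carcinoma line, but the 4 mammary markers together reached at most 2.01 normalised counts in any of those libraries, whereas 9 enterocyte markers summed to at least 89717. The 3 adipocyte markers Adipoq, Lep and Cfd together reached at most 1.04 normalised counts. In these bulk samples, fewer cells of a type and less RNA per cell cannot be told apart.

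The promoters of 2 of the genes and the DNA shared by a divergent pair are shown because PPARα acts through a short repeat. It binds DR1, in which 2 copies of the half-site AGGTCA stand in the same direction with 1 base between them. The 250 bases before the RefSeq start (GRCm38.p6) of all 8 genes were searched on both strands for an exact AGGTCA and for the best match to the 12 fixed bases of DR1, counting overlapping windows. Acadm was called lower by edgeR in 3 comparisons, and the best match in its window had 3 mismatches. Plin2 was called by edgeR in no comparison and by DESeq2 in 1, and its window held the closest match among the 8 genes, with 2 mismatches. The capitals mark these matches, both of which read on the opposite strand. The third stretch is the whole interval between the GENCODE starts of Hadha and Hadhb, which encode the subunits of the trifunctional protein and are transcribed away from each other. The Acadm stretch is chr3:153944644-153944893 on the minus strand, that of Plin2 is chr4:86670061-86670309 on the minus strand, and the interval is chr5:30155163-30155247 printed on the plus strand. The Plin2 stretch leaves out a base that GENCODE places inside the gene.
Acadm promoter: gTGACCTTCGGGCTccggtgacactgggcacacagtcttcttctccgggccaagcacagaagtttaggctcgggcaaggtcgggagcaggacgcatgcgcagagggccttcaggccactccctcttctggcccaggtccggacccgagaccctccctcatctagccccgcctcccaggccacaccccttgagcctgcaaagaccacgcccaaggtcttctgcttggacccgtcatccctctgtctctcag
Plin2 promoter: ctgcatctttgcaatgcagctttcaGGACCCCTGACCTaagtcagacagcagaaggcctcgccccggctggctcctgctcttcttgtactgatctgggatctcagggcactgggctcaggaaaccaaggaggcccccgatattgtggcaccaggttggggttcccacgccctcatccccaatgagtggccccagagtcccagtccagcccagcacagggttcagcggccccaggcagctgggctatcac
Hadha-Hadhb interval: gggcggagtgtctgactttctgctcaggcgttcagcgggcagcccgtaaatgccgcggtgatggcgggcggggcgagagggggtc

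Of the 8 windows, 4 (Cpt1a, Acadvl, Acadm and Plin2) held an exact half-site, as did 14% of the 32851 RefSeq promoters searched in the same way. A DR1 match with at most 3 mismatches was found in 21.3% of all promoters and one with at most 2 mismatches in 3.24%. The other 6 genes had 4 or 5 mismatches at best, and the 85-base interval between Hadha and Hadhb held no half-site. These matches describe the letters of the windows only.

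Set per length of exon, the 8 genes covered a wide range of levels. In WT organoids of the genotype experiment, Acadl had the highest mean level, at 112 CPM per kilobase (counts scaled to the library total), followed by Hadha at 67.5, Acadvl at 50.3, Plin2 at 41.7, Acadm at 31.0, Cpt1a at 26.2, Ppara at 6.85 and Pdk4 at 1.84. In DMSO at 24 h the levels on the same scale were 95.7 for Acadl, 72.4 for Acadvl, 57.5 for Plin2, 52.9 for Hadha, 33.2 for both Acadm and Cpt1a, 10.96 for Ppara and 1.34 for Pdk4. Ppara and Pdk4 were thus the lowest of the 8 in both experiments. Acadvl, which encodes the very long-chain dehydrogenase, shares 1151 bases of exon (42.9% of its exon length) with Dvl2 on the opposite strand, and since the genotype libraries carry no strand information its count there may hold Dvl2 reads.

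Calls among the genotypes were few. In Cdk8-/- organoids Acadm fell and the other 7 genes did not pass the threshold (adjusted p under 0.05, edgeR), so that 1 of 8 was called where 5.15% of all genes tested were called, 2.79% as higher and 2.36% as lower. DESeq2 also called 1 of 8, with 7.47% of its genes called. In the double knockout against WT, edgeR called 0 of 8 where 17.3% of all genes were called (9.41% higher and 7.9% lower), 1 of the 8 and 5005 of all 15602 genes had an unadjusted p under 0.05, and DESeq2 called 0 of 8 with 18% of its genes called. Against Cdk19-/-, the double knockout had 1 of 8 called, Acadl as higher, where 25.3% of all genes were called. DESeq2 called 2 of 8, Acadl and Plin2, with 23.9% of its genes called. The share by edgeR was 15.1% without Cdk19-/- replicate 2 and 17.2% without replicate 3, and in both Acadl was not called. The median log2 fold change of the 8 genes against WT was -0.08 in Cdk8-/-, -0.16 in Cdk19-/- and -0.09 in the double knockout, and that of all genes tested was 0.01, -0.02 and -0.01.

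None of the 8 genes was called by edgeR in the other 4 genotype comparisons. Cdk19-/- against WT had 0% of all genes called, with 0 of the 8 and 1691 of all genes at an unadjusted p under 0.05, and without Cdk19-/- replicate 1 the share of all genes called was 3.27%. The double knockout against Cdk8-/- had 0.0256% of all genes called, with 2 of the 8 and 2417 of all genes at an unadjusted p under 0.05, and without Cdk8-/- replicate 3 the share was 5.28%. Neither omission led to a call among the 8 in these comparisons. Cdk8-/- against Cdk19-/- had 13.8% called, with 1 of the 8 and 4616 of all genes at an unadjusted p under 0.05. Its share was 4.78% without Cdk19-/- replicate 2 and 5.86% without replicate 3. Without Cdk19-/- replicate 1 it was 17.7%, and Acadl (0.37, adjusted p = 0.0349) and Plin2 (0.32, adjusted p = 0.0428) were called. The departure of the double knockout from the sum of the single knockouts, which tests whether their effects add up on the log scale, had 0.0256% called, with 2 of the 8 and 2269 of all genes at an unadjusted p under 0.05. For this departure the share was 2.93% without Cdk19-/- replicate 1, where Acadl (0.66, adjusted p = 0.0352) and Plin2 (0.59, adjusted p = 0.037) were called, and 2.47% without Cdk8-/- replicate 3, where 0 of 8 were. DESeq2 called 0 of 8 in each of these 4 comparisons, with 1.87%, 3.05%, 15.2% and 3.39% of its genes called, respectively.

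In the Senexin B experiment Acadm fell at both times. At 16 h it was the only gene of the 8 called, where 7.75% of all genes were called (4.36% higher and 3.39% lower), and DESeq2 likewise called Acadm alone, with 9.84% of its genes called. At 24 h it was again 1 of 8 where 27.5% of all genes were called (14.8% higher and 12.7% lower), while DESeq2 called 3 of 8 (Acadm, Acadl and Ppara, all lower) with 25.2% of its genes called. Same-numbered Senexin B and DMSO libraries deviated together most clearly for replicate 1 (correlations of 0.303 at 16 h and 0.377 at 24 h). The other replicates correlated at 0.101 to 0.187, and libraries of different numbers at up to 0.154 at 16 h and 0.147 at 24 h. With the replicate number as a block, 1 of 8 was called lower at 16 h, where 7.49% of all genes were called higher and 7.34% lower. At 24 h, 4 of 8 were called lower (Ppara, Acadl, Acadm and Hadha), where 19.3% were called higher and 17.6% lower. This block also ties libraries of both times, although same-numbered DMSO libraries did not all deviate together over time. A block within each time called 1 of 8 lower at 16 h and the same 4 at 24 h, where 15.1% and 38% of all genes were called. The median log2 fold change of the 8 genes was -0.05 at 16 h and -0.24 at 24 h, against -0.01 and 0.00 over all genes tested.

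Time in culture was compared as well. In DMSO, Cpt1a rose from 16 h to 24 h and was 1 of 8 called, where 11.1% of all genes were called, and DESeq2 called the same gene with 17% of its genes called. The share by edgeR was 2.75% without DMSO 16 h replicate 3, 3.33% without DMSO 24 h replicate 1, 6.96% and 6.01% without DMSO 24 h replicates 2 and 3, and 2.57% in a fit of the 2 groups alone. In Senexin B 0 of 8 changed from 16 h to 24 h by edgeR, where 4.46% of all genes were called. Of the 8, 1 had an unadjusted p under 0.05, as did 2792 of all 15467 genes, and DESeq2 called 0 of 8 with 7.77% of its genes called. The share by edgeR was 1.66% and 1.89% without Senexin B 16 h replicates 2 and 3. It was 1.42% and 1.45% without Senexin B 24 h replicates 2 and 3, and none of these omissions led to a call among the 8. The effect of Senexin B at 24 h was tested against that at 16 h directly. It differed for 0 of 8 by edgeR, where 0% of all genes were called and 0 of the 8 and 1995 of all genes had an unadjusted p under 0.05, and for 0 of 8 by DESeq2, with 0.593% of its genes called.

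**Figure D1:**
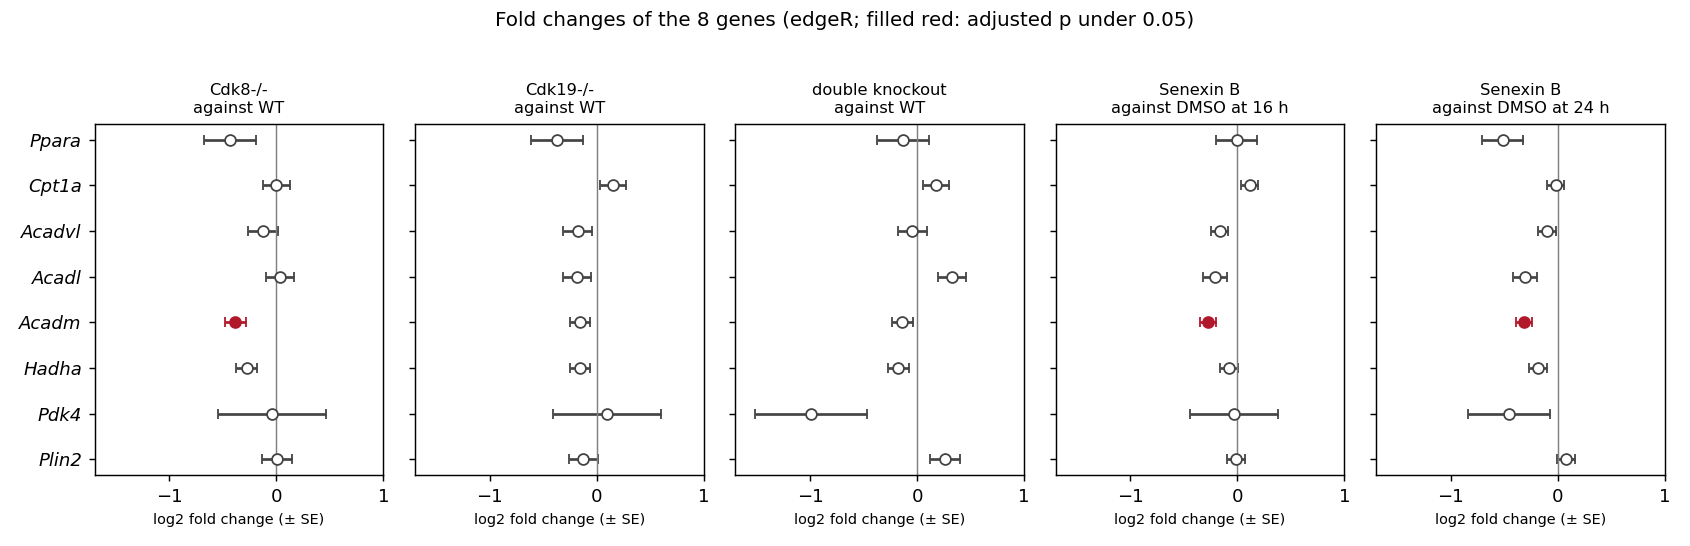
Log2 fold change (x axis, ± SE) of the 8 genes (y axis) in 5 comparisons, edgeR, with filled red points for an adjusted p under 0.05 and open points otherwise. The 3 filled points are Acadm in Cdk8-/-, at -0.38, and Acadm in Senexin B, at -0.28 at 16 h and -0.32 at 24 h.

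Ppara encodes the receptor itself. Its normalised counts were 385, 356 and 436 in WT, 249.8, 401 and 222 in Cdk8-/-, 331, 269 and 312 in Cdk19-/-, and 502, 288 and 286 in the double knockout. Cdk8-/- replicate 2 and double knockout replicate 1 stood above the other libraries of their groups, and only Cdk19-/- did not overlap WT. The log2 fold change against WT was -0.43 (SE 0.243, adjusted p = 0.334) in Cdk8-/-, -0.37 (SE 0.243, adjusted p = 0.66) in Cdk19-/- and -0.13 (SE 0.241, adjusted p = 0.748) in the double knockout, and none passed the test.

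Ppara in the Senexin B experiment had 1099, 1159.7 and 623 normalised counts in DMSO at 16 h and 987, 1018 and 863 in Senexin B at 16 h. At 24 h it had 1290.2, 1098 and 1101 in DMSO and 1020.2, 707 and 716 in Senexin B. The groups overlapped at 16 h, where DMSO replicate 3 was the lowest library, and did not overlap at 24 h. At 24 h the log2 fold change was -0.51 (SE 0.191, adjusted p = 0.0588), which missed the threshold. With the replicate block it was -0.53 (SE 0.133, adjusted p = 0.00598), and with the block within each time it was -0.53 (adjusted p = 0.00205). Without Senexin B 24 h replicate 1, the highest treated library, it was -0.71 (adjusted p = 0.0187). The difference between the effects at 24 h and 16 h was -0.51 (SE 0.269, adjusted p = 0.453).

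Cpt1a encodes the carnitine palmitoyltransferase of the outer mitochondrial membrane, the gate through which long-chain fatty acids enter β-oxidation. It had 2705, 2946 and 3317 normalised counts in WT, 3067, 2522 and 3378 in Cdk8-/-, 2883, 3385 and 3698 in Cdk19-/-, and 3161, 3372 and 3605 in the double knockout. The 4 genotypes overlapped. The log2 fold change against WT ran from 0.00 in Cdk8-/- (SE 0.125) to 0.18 in the double knockout (SE 0.125, adjusted p = 0.358).

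In the Senexin B experiment Cpt1a rose with time in DMSO and was called in neither inhibitor comparison. It had 6048, 5647 and 4851 normalised counts in DMSO at 16 h and 7084, 7149 and 6805 in DMSO at 24 h. The groups did not overlap, and Cpt1a rose by a log2 fold change of 0.35 (SE 0.0778, adjusted p = 0.0146). The rise was 0.26 (adjusted p = 0.0659) without DMSO 16 h replicate 3, the lowest library, and 0.34 (adjusted p = 0.0539) without DMSO 24 h replicate 1. In Senexin B the counts were 5582, 6417 and 5908 at 16 h and 6887, 6928 and 6948 at 24 h, which did not overlap either, with a log2 fold change of 0.21 (SE 0.0777, adjusted p = 0.151). Senexin B against DMSO gave 0.11 (SE 0.0778, adjusted p = 0.426) at 16 h and -0.02 (SE 0.0776, adjusted p = 0.877) at 24 h.

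Acadm encodes the medium-chain acyl-CoA dehydrogenase and was the gene of the 8 called most often. WT organoids had 1725, 1899 and 1815 normalised counts and Cdk8-/- organoids 1324, 1494 and 1354, so that every Cdk8-/- library lay below every WT library. This was a log2 fold change of -0.38 (SE 0.0956, adjusted p = 0.0418). This call lay close to the threshold and was lost when any of WT replicates 1, 2 and 3 or Cdk8-/- replicates 1 and 3 was left out, with adjusted p-values of 0.0954 to 0.134, and with counts taken regardless of strand (-0.34, adjusted p = 0.059). Of the reads on Acadm in the strand columns of the genotype libraries, a median of 43.6% stood in the column used, whereas for the other 7 genes the median was 49 to 50.6%.

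Acadm had 1601, 1549 and 1722 normalised counts in Cdk19-/- and 1832, 1436 and 1676 in the double knockout. Cdk19-/- lay below WT in every library by a log2 fold change of -0.16 (SE 0.0953, adjusted p = 0.608), which did not pass the test. The double knockout overlapped both WT (-0.14, SE 0.0953, adjusted p = 0.345) and Cdk8-/- (0.24, SE 0.0956, adjusted p = 0.254). The means fell in the order WT, double knockout, Cdk19-/- and Cdk8-/-. No neighbours in this order passed the test, although the Cdk19-/- and Cdk8-/- libraries did not overlap (adjusted p = 0.139). The departure of the double knockout from the sum of the single knockouts was 0.40 (SE 0.135, adjusted p = 0.209).

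With Senexin B, Acadm fell at both times. It had 3591, 3123 and 3138 normalised counts in DMSO at 16 h and 2709.9, 2654 and 2772 in Senexin B at 16 h. At 24 h it had 3904, 3456 and 3415 in DMSO and 2831, 2853 and 2963 in Senexin B. The groups did not overlap at either time, and in both DMSO groups replicate 1 was the highest library. The log2 fold change was -0.28 (SE 0.0718, adjusted p = 0.0303) at 16 h and -0.32 (SE 0.0717, adjusted p = 0.00535) at 24 h, and with the replicate block the adjusted p-values were 0.00912 and 0.00128.

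The 16 h call of Acadm held without DMSO 16 h replicate 2 (adjusted p = 0.0353) or 3 (adjusted p = 0.0356). It was lost without DMSO 16 h replicate 1 (-0.21, adjusted p = 0.0622), without Senexin B 16 h replicate 1 (adjusted p = 0.084), replicate 2 (adjusted p = 0.119) or replicate 3 (adjusted p = 0.0748), and in a fit of these 2 groups alone (adjusted p = 0.0898). The 24 h call held when each of the 6 libraries was left out in turn. The effects at 24 h and 16 h differed by -0.04 (SE 0.101, adjusted p = 0.907).

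Acadl encodes the long-chain acyl-CoA dehydrogenase. It had 3487, 3390.4 and 3199 normalised counts in WT, 3463, 3035 and 3813 in Cdk8-/-, 3657, 2583 and 2632 in Cdk19-/-, and 4524, 4038 and 4091 in the double knockout. Every double knockout library lay above every library of the other 3 genotypes. Acadl was higher in the double knockout than in Cdk19-/- by a log2 fold change of 0.51 (SE 0.131, adjusted p = 0.014), and against WT the value was 0.33 (SE 0.131, adjusted p = 0.105), which did not pass.

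The values for Acadl turned on the Cdk19-/- group, whose replicate 1 stood above the other libraries of the group and had Cdk19 at the WT level. Without Cdk19-/- replicate 2 the rise over Cdk19-/- was 0.41 (adjusted p = 0.0745) and without replicate 3 it was 0.41 (adjusted p = 0.0762). Without replicate 1, Acadl also passed in Cdk8-/- against Cdk19-/- (0.37, adjusted p = 0.0349) and in the departure of the double knockout from the sum of the single knockouts (0.66, adjusted p = 0.0352). With Cdk19-/- replicate 1 and double knockout replicate 3 both left out, Acadl passed in the double knockout against WT (0.35, adjusted p = 0.0419).

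With Senexin B, Acadl lay on the lower side at both times. It had 5239, 4650.4 and 4699.6 normalised counts in DMSO at 16 h and 3589, 4619 and 4393 in Senexin B at 16 h. At 24 h it had 4882, 5618 and 5416 in DMSO and 3515, 4665 and 4688 in Senexin B. The groups did not overlap at either time, and Senexin B replicate 1 was the lowest library both times. Against DMSO the values were -0.21 (SE 0.114, adjusted p = 0.298) at 16 h and -0.31 (SE 0.114, adjusted p = 0.0585) at 24 h. With the replicate block the 24 h value passed (-0.31, SE 0.0912, adjusted p = 0.0138) whereas that at 16 h did not (-0.22, adjusted p = 0.115). The 24 h value also passed with the block within each time (-0.32, adjusted p = 0.0137).

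Acadvl had 2062, 2031 and 1960.5 normalised counts in WT, 1999, 1987 and 1561 in Cdk8-/-, 2132, 1562 and 1658 in Cdk19-/-, and 2249, 1926 and 1701 in the double knockout. No genotype stood apart from WT. Its log2 fold changes against WT ran from -0.18 (SE 0.137) in Cdk19-/- to -0.04 (SE 0.137) in the double knockout, with adjusted p-values of 0.651 to 0.861. Senexin B gave -0.17 (SE 0.0835, adjusted p = 0.259) at 16 h and -0.10 (SE 0.0836, adjusted p = 0.384) at 24 h, and the groups overlapped at both times.

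**Figure D2:**
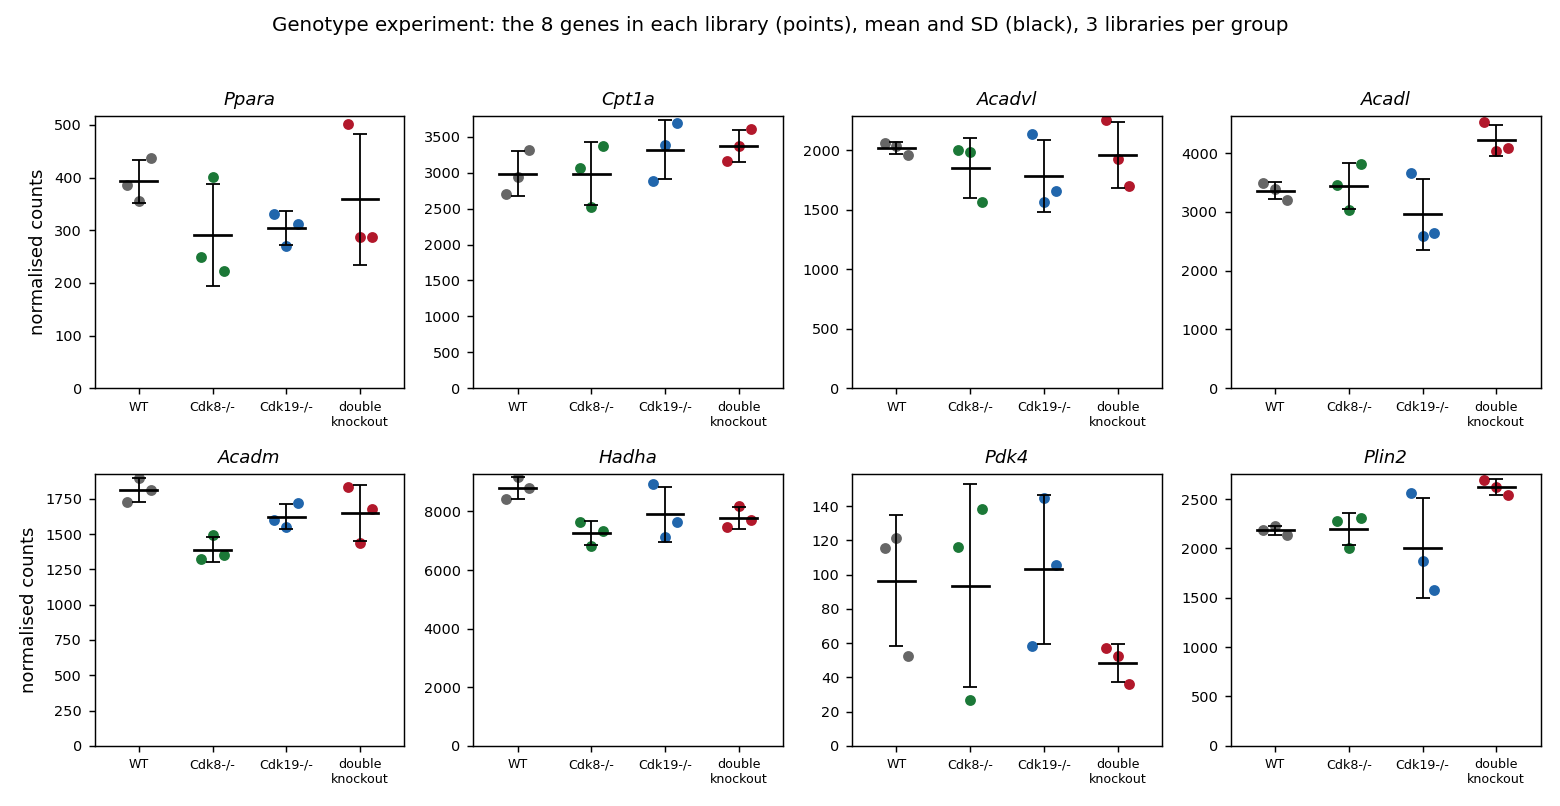
Normalised counts (y axis, from 0) of the 8 genes in each library of the 4 genotypes (x axis), with points for libraries in replicate order and black bars for mean ± SD (n = 3). The Cdk8-/- libraries of Acadm, at 1324 to 1494, all lie below those of WT, at 1725 to 1899, and the double knockout libraries of Acadl, at 4038 to 4524, lie above all others.

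Hadha encodes the α subunit of the mitochondrial trifunctional protein. It had 8434, 9178 and 8787 normalised counts in WT, 7639, 6829.7 and 7316 in Cdk8-/-, 8933, 7139.96 and 7629.7 in Cdk19-/-, and 7459, 8199 and 7704 in the double knockout. The Cdk8-/- and double knockout libraries all lay below WT. The log2 fold changes were -0.28 (SE 0.0966, adjusted p = 0.122) and -0.18 (SE 0.0966, adjusted p = 0.232), respectively, and neither passed.

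Hadha in the Senexin B experiment had 13668, 11343 and 10445 normalised counts in DMSO at 16 h and 11435, 11081 and 11091 in Senexin B at 16 h. At 24 h it had 13578, 12417 and 12325 in DMSO and 11518, 11137 and 11088 in Senexin B. The groups overlapped at 16 h (-0.08, SE 0.0836, adjusted p = 0.648) and did not at 24 h (-0.18, SE 0.0836, adjusted p = 0.119). With the replicate block the 24 h value passed (-0.18, SE 0.0669, adjusted p = 0.0437), as it did with the block within each time (-0.18, adjusted p = 0.0471). From 16 h to 24 h in DMSO, Hadha did not pass (0.11, adjusted p = 0.413), but it did without DMSO 16 h replicate 1, the highest library of the earlier time (0.23, adjusted p = 0.0298).

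Hadhb, the gene on the other side of the 85-base interval, encodes the β subunit of the same enzyme. It had 7126, 7044 and 6968 normalised counts in DMSO at 24 h and 6142, 5747 and 5516 in Senexin B at 24 h. The groups did not overlap, and Hadhb fell by a log2 fold change of 0.28 (SE 0.0758, adjusted p = 0.0143). At 16 h the value was -0.07 (SE 0.0757, adjusted p = 0.634). In the genotype experiment its log2 fold change was -0.38 (SE 0.137, adjusted p = 0.135) in Cdk8-/- and -0.24 (SE 0.136, adjusted p = 0.247) in the double knockout, and in both its libraries lay below WT.

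The subunit genes stood at very different levels relative to each other in the 2 experiments. With reads counted regardless of strand, Hadhb had 4.73 to 5.42% of the Hadha count in the 12 genotype libraries and 47.5 to 55.6% in the 12 Senexin B libraries. Hadhb itself had 724 to 954 reads and 5586 to 7707 reads per library, respectively, while Hadha had 13824 to 18228 and 11325 to 15137. Reads that mapped to several places, which these counts leave out, made up 19.5 to 22.9% of reads in the genotype experiment and 7.25 to 8.17% in the other, and their part in the difference was not tested. The experiments were prepared apart, so organoid line, library type and experiment cannot be told apart.

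**Figure D3:**
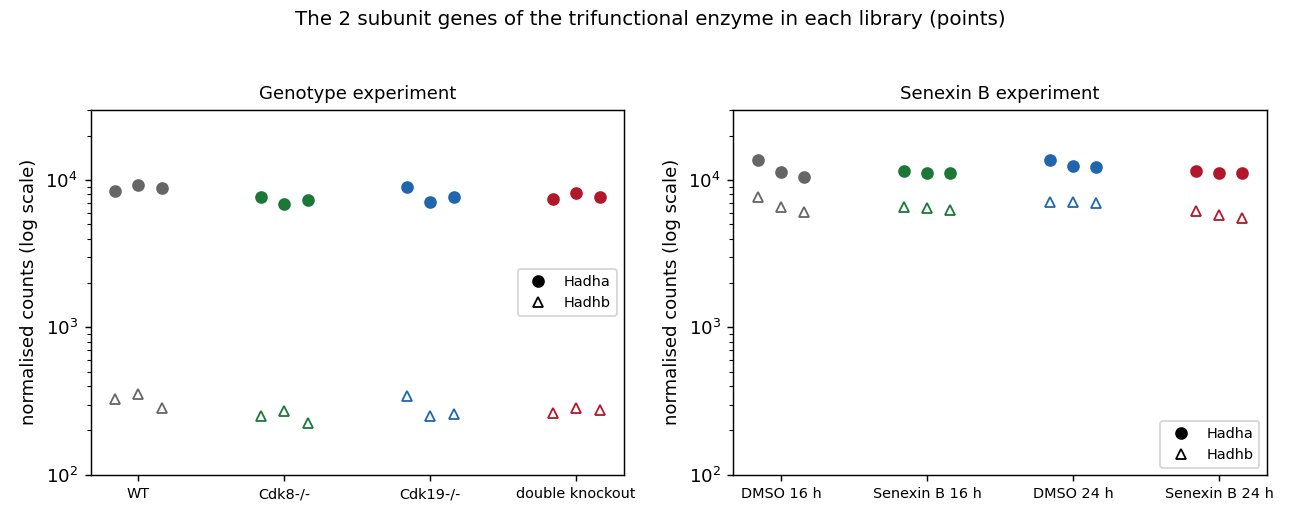
Normalised counts (y axis, log scale) of Hadha (filled circles) and Hadhb (open triangles) in each library of the genotype experiment (left) and the Senexin B experiment (right), with the groups on the x axis. In the genotype experiment Hadhb lies far below Hadha in all 4 genotypes, and in the Senexin B experiment the genes lie close together in all 4 groups.

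Pdk4 encodes a kinase that shuts off the pyruvate dehydrogenase complex and so turns mitochondria from glucose to fatty acids. It was the least expressed of the 8 genes. It had 116, 121 and 52.2 normalised counts in WT, 116, 26.5 and 138 in Cdk8-/-, 58.4, 145 and 106 in Cdk19-/-, and 57.1, 52.2 and 35.9 in the double knockout. The double knockout was low in all 3 libraries but overlapped WT through WT replicate 3. Its log2 fold change was -0.99 (SE 0.525, adjusted p = 0.215) against WT and -1.09 (SE 0.523, adjusted p = 0.146) against Cdk19-/-, and in the other genotypes against WT it was within 0.10 of 0.

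Pdk4 in the Senexin B experiment had 117, 75.2 and 29.9 normalised counts in DMSO at 16 h and 91.5, 48.7 and 76.7 in Senexin B at 16 h. At 24 h it had 205, 107 and 80.04 in DMSO and 100.6, 97.4 and 87.3 in Senexin B. Within each DMSO group the libraries differed by more than the treated and control means did. Senexin B gave a log2 fold change of -0.03 (SE 0.413, adjusted p = 0.977) at 16 h and -0.46 (SE 0.38, adjusted p = 0.4) at 24 h. From 16 h to 24 h in DMSO it was 0.82 (SE 0.389, adjusted p = 0.185), and without DMSO 16 h replicate 1 it was 1.31 and passed (adjusted p = 0.0447).

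Plin2 encodes perilipin 2, a coat protein of lipid droplets and a widely used PPAR target. It had 2191, 2229.8 and 2137 normalised counts in WT, 2281, 2007 and 2308 in Cdk8-/-, 2566, 1873 and 1576 in Cdk19-/-, and 2699, 2621 and 2538 in the double knockout. The double knockout lay above WT and Cdk8-/- in every library, and Cdk19-/- was spread over a wider range than any other group. In the double knockout the log2 fold change was 0.26 (SE 0.139, adjusted p = 0.219) against WT and 0.39 (SE 0.139, adjusted p = 0.0606) against Cdk19-/-, neither past the threshold.

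As for Acadl, leaving out Cdk19-/- replicate 1 changed the calls of Plin2. Without it the double knockout was above Cdk19-/- by 0.58 (adjusted p = 0.00166), Cdk8-/- was above Cdk19-/- by 0.32 (adjusted p = 0.0428), and the departure from the sum of the single knockouts was 0.59 (adjusted p = 0.037). With Senexin B, Plin2 had 6596, 5199.9 and 5307 normalised counts in DMSO and 5529, 5951 and 5484 in Senexin B at 16 h, and 5881, 5740.1 and 5137 in DMSO and 5699, 6023 and 5959 in Senexin B at 24 h. The groups overlapped at both times, with log2 fold changes of -0.01 (SE 0.0868, adjusted p = 0.959) and 0.08 (SE 0.0868, adjusted p = 0.541).

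**Figure D4:**
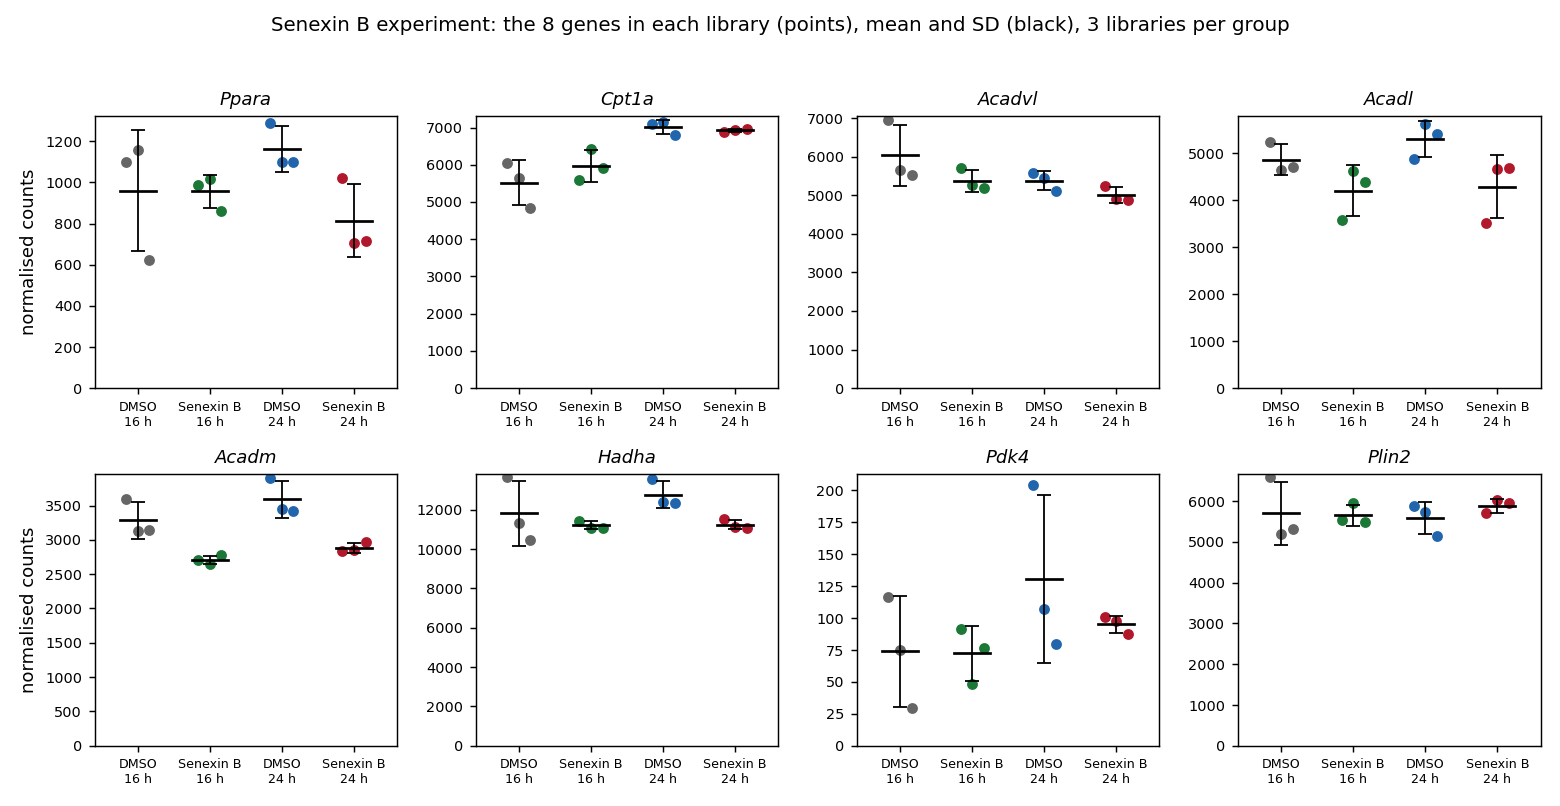
Normalised counts (y axis, from 0) of the 8 genes in each library of the Senexin B experiment (x axis: treatment and time), with points for libraries in replicate order and black bars for mean ± SD (n = 3). The Senexin B libraries of Acadm lie below the DMSO libraries at both times, at 2654 to 2772 against 3123 to 3591 at 16 h, and Cpt1a is higher in DMSO at 24 h than at 16 h.

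The wider pathway was read through 81 further genes in 9 roles, of which 69 were tested in the genotype experiment and 72 in the Senexin B experiment. In Cdk8-/- organoids 2 of the 69 rose and 2 fell, close to the shares of all genes tested (2.79% and 2.36%). Ppard, a PPAR prominent in intestinal crypts, rose by a log2 fold change of 0.64 (SE 0.115, adjusted p = 0.0097), and Abhd5, the co-activator of the triglyceride lipase of lipid droplets, rose by 0.77 (SE 0.128, adjusted p = 0.00702). Acsl1, a long-chain acyl-CoA synthetase, fell by 0.58 on the log2 scale (SE 0.0914, adjusted p = 0.00496), and Pdk2, a relative of Pdk4, fell by 0.50 (SE 0.105, adjusted p = 0.0196). The calls of Ppard and Pdk2 were lost without WT replicate 1 (adjusted p = 0.0509 and 0.0746), and that of Pdk2 also without WT replicate 2 (adjusted p = 0.0759) or 3 (adjusted p = 0.0631). Without WT replicate 1 the number called fell from 4 to 2, and the share of all genes called from 5.15% to 1.23%. The median log2 fold change of the 69 genes was -0.015, against 0.01 over all genes tested. In Cdk19-/-, edgeR called 0 of the 69, with 17 at an unadjusted p under 0.05, and DESeq2 called 3. Of all genes, edgeR called 0%, 1691 of 15602 had an unadjusted p under 0.05, and DESeq2 called 1.87%.

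In the double knockout 14 of the 69 genes rose and 2 fell against WT, and without WT replicate 1 the number called fell from 16 to 10, while the share of all genes called fell from 17.3% to 8.47%. Over all genes tested 9.41% rose and 7.9% fell. By role, the 14 rises were 4 of 10 genes of uptake and activation (where 1 fell), 3 of 12 of peroxisomal oxidation, 2 of 4 of the carnitine shuttle, 2 of 5 of lipid droplets and lipolysis, and 1 each of mitochondrial oxidation, regulators and other PPAR targets. Cd36, a fatty acid receptor at the cell surface, had 593, 602 and 500.04 normalised counts in WT, whereas the double knockout had 1669.8, 932 and 1719 (log2 fold change 1.35, SE 0.345, adjusted p = 0.0201). The groups did not overlap. Fabp2, the intestinal fatty acid binding protein, rose by 1.18 (SE 0.258, adjusted p = 0.00944), and Acsl5, an acyl-CoA synthetase of enterocytes, rose by 0.81 (SE 0.186, adjusted p = 0.0119). Acsl1 fell by 0.58 on the log2 scale (SE 0.0914, adjusted p = 0.00186), as in Cdk8-/-. The call of Cd36 was lost without WT replicate 1, 2 or 3 or double knockout replicate 1 or 3 (adjusted p = 0.0654, 0.0599, 0.0694, 0.0562 and 0.0527).

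The genes of oxidation itself are described by the organelle under which they were listed, for the double knockout, where 9.41% of all genes rose. The difference between these lists was not tested. In peroxisomes, which shorten very long-chain fatty acids, 3 of 12 genes rose, among them Crot (0.62, adjusted p = 0.00195) and Acox3 (0.58, adjusted p = 0.00423). Of the 16 genes listed under mitochondrial oxidation 1 rose, Acad11 (0.65, adjusted p = 0.00452), and 0 fell. DESeq2 also called Acad12 of the mitochondrial list and Hsd17b4 of the peroxisomal list, for which edgeR gave 0.39 (adjusted p = 0.0536) and 0.35 (adjusted p = 0.0656). Crot, Acox3, Acad11, Acad12 and Hsd17b4 were named after their values were seen. Of the carnitine shuttle 2 of 4 genes rose, but Cpt2, the inner membrane partner of Cpt1a, did not pass (0.19, SE 0.14, adjusted p = 0.367).

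Angptl4, a secreted lipase inhibitor and PPAR target, had 221, 243 and 11.5 normalised counts in WT, whereas the double knockout had 42.8, 6.89 and 10.7 (-2.98, SE 1.07, adjusted p = 0.0756), with WT itself split.

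Markers of cell types moved with genotype beside these genes. The 9 enterocyte markers summed to 121756 to 128274 normalised counts in WT organoids, 150484 to 177804 in Cdk8-/-, 89717 to 115168 in Cdk19-/- and 206531 to 272547 in the double knockout, and 6 of 9 rose in the double knockout against WT. The 5 stem cell markers summed to 37185 to 42348 in WT, 33111 to 52952 in Cdk8-/-, 49452 to 78011 in Cdk19-/- and 26619 to 29551 in the double knockout. Of these, 4 of 5 fell in the double knockout and 1 of 5 in Cdk8-/-, and none was called in Cdk19-/- (0 of 5), whose sums all lay above those of WT. The 5 Paneth cell markers summed to 12519 to 16531 in WT, 39158 to 53163 in Cdk8-/-, 13902 to 16065 in Cdk19-/- and 26098 to 55470 in the double knockout, and 5 of 5 rose in Cdk8-/- and in the double knockout and 0 of 5 in Cdk19-/-. Of the proliferating cell markers 3 of 5 fell in the double knockout, as did 2 of 4 tuft cell markers, and of the goblet cell markers 3 of 6 rose in Cdk8-/- and 1 of 6 in the double knockout. The part of these shifts in the values of the fatty acid genes was not tested.

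With Senexin B at 16 h, 2 of the 72 wider genes rose and 5 fell, where 4.36% of all genes tested rose and 3.39% fell. Vnn1, a pantetheinase and PPAR target of the gut, had 694, 471 and 277 normalised counts in DMSO and 1048, 1014 and 961 in Senexin B, a log2 fold change of 1.07 (SE 0.225, adjusted p = 0.00938). Bdh1, a ketone body dehydrogenase, rose by 0.23 (SE 0.0641, adjusted p = 0.0412). The larger falls were Hilpda, a lipid droplet protein, by 0.49 (SE 0.111, adjusted p = 0.0135), Pdk1 by 0.38 (SE 0.0672, adjusted p = 0.00327) and Acox2 by 0.31 (SE 0.0804, adjusted p = 0.0276). With the replicate block 6 rose and 12 fell, where 7.49% and 7.34% of all genes did. The number called was 2 in a fit of these 2 groups alone, 13 without DMSO 16 h replicate 1, 4 without DMSO 16 h replicate 3 or Senexin B 16 h replicate 3, and 3 without Senexin B 16 h replicate 2. The shares of all genes called in these settings were 4.86%, 11.6%, 5.7%, 4.3% and 4.18%, respectively. The calls of Bdh1 and Acox2 were lost without DMSO 16 h replicate 2 or 3 or any 1 of the Senexin B 16 h libraries (adjusted p up to 0.133 and 0.112), and that of Hilpda without DMSO 16 h replicate 3 or Senexin B 16 h replicate 2 (adjusted p = 0.0567 and 0.0821).

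At 24 h, 4 of the 72 wider genes rose and 9 fell, where 14.8% of all genes tested rose and 12.7% fell, and with the replicate block 7 rose and 16 fell, where 19.3% and 17.6% of all genes did. Peroxisomal oxidation had 5 of 12 genes lower and 0 higher, and mitochondrial oxidation 2 of 16 lower and 0 higher, the latter close to the share of all genes called lower. Acadsb, the short and branched-chain acyl-CoA dehydrogenase, had 1017, 1144 and 1291 normalised counts in DMSO and 737, 691 and 808 in Senexin B, a log2 fold change of -0.63 (SE 0.12, adjusted p = 0.00191). Ehhadh, the peroxisomal bifunctional enzyme, had 3714, 3570.01 and 3367 in DMSO and 2442, 2524 and 2479.6 in Senexin B (-0.52, SE 0.0689, adjusted p = 0.000167). Cidec, a lipid droplet protein, fell by 0.58 (SE 0.125, adjusted p = 0.00416). The median of the 72 genes was -0.10, against 0.00 over all genes tested.

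Of the 8 other PPAR targets tested at 24 h, 1 (Vnn1) was higher and 1 (Cidec) lower, close to the shares of all genes (14.8% higher and 12.7% lower). Their median log2 fold change was -0.165. Vnn1 had 1094, 872 and 863 normalised counts in DMSO and 1749, 2410.4 and 2156 in Senexin B (1.16, SE 0.216, adjusted p = 0.0016). Ppargc1b, a co-activator of mitochondrial genes, rose by 0.31 (SE 0.0961, adjusted p = 0.0288), and Fabp1, the liver-type fatty acid binding protein, rose by 0.27 (SE 0.0721, adjusted p = 0.0139). Ppargc1b was lost without DMSO 24 h replicate 1, 2 or 3 or Senexin B 24 h replicate 2 or 3 (adjusted p = 0.0742, 0.0673, 0.0689, 0.115 and 0.112), and Fabp1 without DMSO 24 h replicate 3 (adjusted p = 0.0706). Cpt2 (-0.07, SE 0.0619, adjusted p = 0.412) and Angptl4 (-0.63, SE 0.397, adjusted p = 0.256) did not pass. The summed enterocyte markers stayed within 102328 to 121142 normalised counts in all 4 groups, although at 24 h 3 of 9 were higher and 2 lower with Senexin B (at 16 h, 2 higher and 1 lower). At 16 h, where 4.36% of all genes were called higher and 3.39% lower, 3 of 6 goblet cell markers were higher. At that time 1 of 5 enteroendocrine markers was higher and 1 lower, and 1 of 5 stem and 1 of 5 Paneth cell markers were lower. At 24 h, 1 of 5 stem cell markers was lower, and 2 of 5 enteroendocrine markers were higher and 1 lower. Of the goblet cell markers 4 of 6 were higher and 1 lower at 24 h, and 3 of 4 tuft and 2 of 5 proliferating cell markers were higher. By contrast, the Paneth cell markers were at 57161 to 60285 in DMSO and 26883 to 36708 in Senexin B at 24 h, with 4 of 5 lower, and the part of these markers was not tested.

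Crot, which passes shortened fatty acids from peroxisomes to carnitine, and Cidec were called in opposite directions in the experiments, as found after their values were seen. Crot had 1203, 1256 and 1238 normalised counts in WT, whereas the double knockout had 1861, 1895 and 1941 (0.62, adjusted p = 0.00195). In the Senexin B experiment it had 2184, 1966 and 2074 in DMSO and 1776, 1689 and 1789 in Senexin B at 24 h (-0.24, adjusted p = 0.0212). The log2 fold change of Cidec was 0.62 (adjusted p = 0.0372) in the double knockout and -0.58 (adjusted p = 0.00416) with Senexin B at 24 h. The difference between these effects was not tested, as the experiments were normalised apart.

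**Figure D5:**
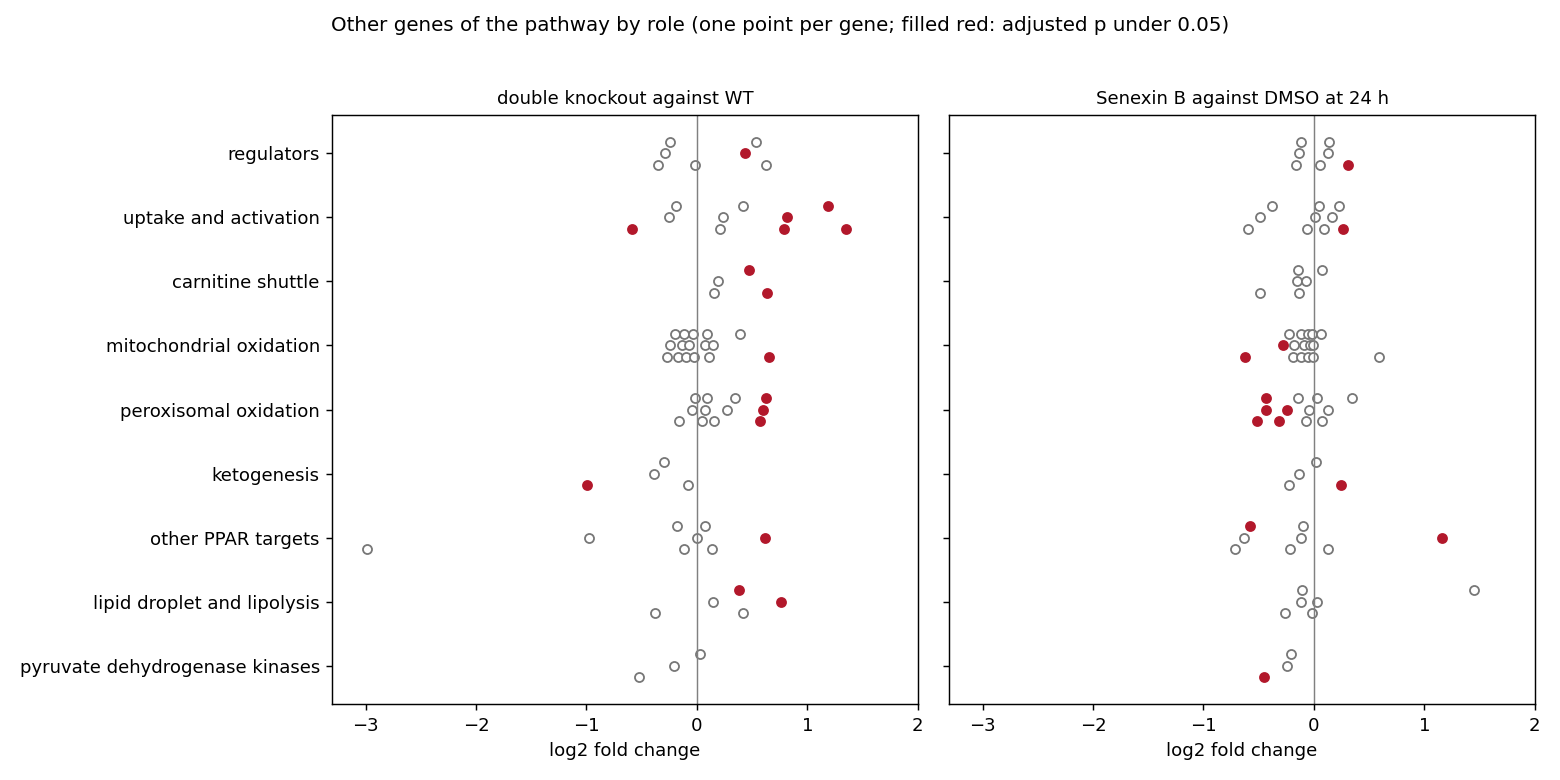
Log2 fold change (x axis) of the tested genes of the wider pathway by role (y axis), in the double knockout against WT (left) and Senexin B against DMSO at 24 h (right), with 1 point per gene and filled red points for an adjusted p under 0.05. The filled peroxisomal points lie to the right of 0 in the double knockout (3 genes) and to the left with Senexin B (5 genes).

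The gene most like each of the 8 in pattern was taken by the highest Pearson correlation of log2 CPM over the 12 libraries of an experiment, among 12124 and 11998 genes whose mean normalised count reached 50. These correlations are descriptions over libraries that share group and depth. In the genotype experiment they were Ddi2 for Ppara (r = 0.940), Asap2 for Cpt1a (0.933), Cisd3 for Acadvl (0.938), P2ry2 for Acadl (0.965), Fam13a for Acadm (0.915), Cyp2b10 for Hadha (0.910), Pcdhgc4 for Pdk4 (0.942) and Vps28 for Plin2 (0.943). In the Senexin B experiment they were Hectd4 for Ppara (0.956), Angpt2 for Cpt1a (0.956), Stxbp2 for Acadvl (0.959), C4b for Acadl (0.956), Myrf for Acadm (0.981), Tom1l2 for Hadha (0.964), Adcy6 for Pdk4 (0.961) and Mtg2 for Plin2 (0.886). No gene was the nearest to the same member in both experiments.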

How the data were processed

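The authors deposited, for each library, a table of raw read counts per gene from STAR, with 1 column regardless of strand and 1 for each strand. Per the labels, STAR 2.6.0c and the GRCm38.p6 genome were used, and the study's methods name an earlier letter release of STAR. The second strand column was analysed, as in the study's own normalised means. The Senexin B libraries are stranded and the genotype libraries are not, and where genes overlap on opposite strands their counts in the latter are uncertain. The labels describe the Senexin B libraries as rRNA-depleted, whereas the protocol names oligo(dT) beads.

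Within each experiment, counts were filtered by filterByExpr, normalised by TMM and fitted in 1 model of the 12 libraries with edgeR 4.0.16 (R 4.3.3). Comparisons were tested by quasi-likelihood, and p-values were adjusted by Benjamini-Hochberg over all genes tested. SEs were computed as the log2 fold change over the root of F. Normalised counts are at the mean library size of the experiment. The scripts were tested on simulated counts with known changes. For the double knockout against WT, edgeR found 10.4% of changes of 0.5 on the log2 scale and 51.9% of changes of 1. For Senexin B against DMSO at 24 h it found 40.5% and 74.2%, so small changes were often missed. By chi-square per degree of freedom over genes, no 2 libraries of a group agreed within sampling noise. WT replicates 1 and 2 came closest (2.31), whereas WT replicate 3 stood at 9.51 and 8.99 from them.

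The 8 genes, the wider list and the marker lists were chosen with earlier results of these data known. Besides the 8, the text names up to 3 of the largest rises and falls of the wider list among called genes with at least 50 normalised counts, for Cdk8-/-, double knockout and both Senexin B comparisons, and Cpt2, Angptl4 and Hadhb whatever they showed. Some genes that this rule names are not reported here. Alternatives were DESeq2 size factors, DESeq2 1.42.0 (the study's tool), other filters on low counts, fits of only the groups compared, a block for the replicate number, counts regardless of strand and leaving out libraries. The block within each time and all alternatives for the wider list were added after seeing the data. Deviations of same-numbered libraries from their group means correlated at 0.303, 0.101 and 0.11 at 16 h and at 0.377, 0.137 and 0.187 at 24 h between Senexin B and DMSO. Libraries of different numbers reached 0.154 and 0.147, respectively. The correlations thus set apart replicate 1 at 16 h and replicates 1 and 3 at 24 h. They do not settle whether the numbers pair all these libraries, and no pairing is stated in the study. Promoters were read from RefSeq, and gene positions from GENCODE on the same build.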

Additional observations from a re-analysis of the deposited data

How the results depend on the processing

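Under the alternatives, the direction of the members called held in 68 of 68 values and the call in 51. Of 1332 values for members not called, 36 were called and 83 changed sign, and 0 did both. No paired reading was made of the genotype groups, whose same-numbered libraries did not deviate together (correlations of -0.14 to 0.0471 with WT), nor of the DMSO libraries over time, where the 3 correlations were 0.366, -0.0503 and 0.284, so that both share only a number. Values below are numbers of genes called, with log2 fold changes or shares of all genes in parentheses.

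For the 8 members in Cdk8-/- against WT, 1 (5.15%) became 0 with the replicate block (4.54%) or with counts regardless of strand (5.65%). With the block Acadm stood at -0.38 (edgeR adjusted p = 0.0629). Without single libraries the number was 0 to 1 (1.23% to 4.39%). In the double knockout against WT, 0 (17.3%) became 2 in a fit of the 2 groups alone (Acadl and Plin2, 18.6%). It became 1 without Cdk19-/- replicate 1 and double knockout replicate 3 (19%). Against Cdk19-/-, 1 (25.3%) became 3 with no filter on low counts (13.8%) and 2 with the replicate block (25.1%) or DESeq2 (23.9%). Without single libraries it was 0 to 2 (15.1% to 27.1%). In Cdk8-/- against Cdk19-/-, 0 (13.8%) became 0 to 2 without single libraries (4.78% to 17.7%). In the departure from the sum of the single knockouts, 0 (0.0256%) likewise became 0 to 2 (0% to 2.93%). With Senexin B at 16 h, 1 (7.75%) became 0 in a fit of the 2 groups alone (4.86%) and 0 to 1 without single libraries (4.18% to 11.6%). At 24 h, 1 became 3 with no filter or DESeq2, 2 with at least 10 counts in every library, 4 with the replicate block, the block within each time or the 2 groups alone (36.9%, 38% and 30.7% of all genes called, against 27.5%), and 1 to 2 without single libraries (16.9% to 24.2%). From 16 h to 24 h in DMSO, 1 (11.1%) became 2 with no filter (6.55%) or the replicate block (21.2%). The block added Pdk4 (0.82, edgeR adjusted p = 0.036). The number became 0 in the 2 groups alone (2.57%) and 0 to 3 without single libraries (2.75% to 14.6%).

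For the wider list, 4 in Cdk8-/- (5.15%) became 7 with no filter (4.26%), 9 in the 2 groups alone (6.26%), and 2 to 5 without single libraries (1.23% to 4.39%). In the double knockout 16 (17.3%) became 21 with DESeq2 (18%) or no filter (9.71%), and 10 to 15 without single libraries (8.47% to 15.4%). It became 17 without Cdk19-/- replicate 1 and double knockout replicate 3 (19%). At 16 h of Senexin B, 7 (7.75% of all genes called) became 18 with the replicate block (14.8%) and 20 with the block within each time (15.1%). It became 12 with DESeq2 (9.84%), 2 in the 2 groups alone (4.86%), and 3 to 13 without single libraries (4.18% to 11.6%). At 24 h, 13 (27.5%) became 23 with the replicate block and 22 with the block within each time (36.9% and 38% of all genes called). All 276 values of the named genes of the wider list kept their direction, and 239 kept their call. Replicate blocks changed no other call of a member. The cause of these changes was not tested. With 3 libraries per group, and SEs of the log2 fold change from 0.0953 for Acadm to 0.525 for Pdk4 in the pairwise genotype comparisons, a member that was not called may still have changed.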
